A study of Homo sapiens with 10 samples.

Results

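DEAD and DEAH box proteins are RNA helicases, enzymes that use ATP to unwind RNA or to strip proteins from it, and their genes carry DDX and DHX symbols. The genes described here are the rows of the deposited expression table whose platform gene symbol is DDX or DHX followed by a number and at most 1 letter. This pattern took 54 of the 16098 named rows and gave 47 of 14884 named genes, 31 with a DDX and 16 with a DHX symbol. DHX16 had 8 rows, of which the brightest on average was taken, and each other gene had 1 row. Another 6 rows, for DDX11L pseudogenes, an antisense RNA and a divergent transcript, were left out.

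The family takes its names from a short amino acid motif that binds ATP. DEAD box proteins mostly separate short duplexes locally, whereas DEAH box proteins move along a single strand and pull on it. Different members drive the steps of splicing, the assembly of ribosomal subunits, export of messenger RNA through the nuclear pore, translation, RNA decay and the sensing of viral RNA.

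The study measured total RNA from PC-3, an established human line from a bone metastasis of prostate cancer, on 1-colour Affymetrix arrays. The control group was 5 clones (1, 2, 3, 4 and 5) that carried an empty p-Lenti vector, and the CENPU group was 5 clones (1, 4, 5, 7 and 13) that carried CENPU, an inner kinetochore gene, in that vector. All 10 had been selected with blasticidin and propagated as clonal isolates, so each array stands for 1 clone of the line, and a trait of a single founder cell cannot be told apart from its vector. The labels do not name the promoter that drove CENPU, and PC-3 cells without a vector were not analysed here.

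CENPU itself separated the groups and matched the labels in all 10 clones, at 8.70 to 9.84 in the CENPU clones and 5.78 to 6.56 in the controls on the log2 scale of the table. The values are normalised log2 expression values, on which a difference of 1 is a doubling. Of the epithelial markers KRT7, KRT8, KRT18, KRT19 and EPCAM all 5 were measured, with means from 6.43 to 10.7. The markers measured for leukocytes (CD14, LYZ) and fibroblasts (DCN) had means from 2.77 to 4.18, under the 4.69 that was the median of all rows. Of 3 measured endothelial markers the means ran from 4.44 to 8.28, highest for KDR. A list of androgen receptor programme genes, known to be low in PC-3, had 2 measured genes. These were KLK2 and KLK3, each with a mean of 5.59, above the median of all rows. In these lists 0 markers passed. Array medians lay between 4.62 and 4.76, and arrays correlated at 0.916 to 0.993 across genes. Clones are the replicates in all that follows, and their number limits the precision.

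Of the 47 helicase genes, 14 differed between the groups, 9 higher and 5 lower in CENPU clones (limma, Benjamini-Hochberg adjusted p under 0.05 over 16098 rows). That is 29.8% of the helicase genes, against 10.1% of all genes tested and 11.7% of protein-coding genes. The rises were the larger changes: DHX15, DHX57, DHX9, DHX32, DHX36, DDX1, DDX42, DHX8 and DDX47 rose by 0.61 to 1.53 on the log2 scale, and DDX54, DHX37, DHX34, DDX28 and DHX30 fell by 0.33 to 0.48. For the risen genes the share was 9 of 47 against 5.31% of all genes, and for the fallen ones 5 of 47 against 4.79%. For 13 helicase genes (27.7%) the CENPU and control values did not overlap, against 9.73% of all genes and 11.1% of protein-coding genes. In 7 of them the CENPU clones were higher and in 6 lower, against 4.54% and 5.19% of all genes. The median log2 difference was 0.19 over the 47 genes and -0.02 over all genes. Without control 2, CENPU 7 and CENPU 13 the family median was 0.01 and that of all genes 0.006. The family median was 0.31 without CENPU 4 and 0.11 without CENPU 7. In bulk RNA, fewer cells that express a gene and less RNA per cell cannot be told apart. Of the 16 genes with a DHX symbol 9 passed, 6 higher and 3 lower, and of the 31 with a DDX symbol 5 passed, 3 higher and 2 lower. The difference between these shares was not tested.

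**Figure D1:**
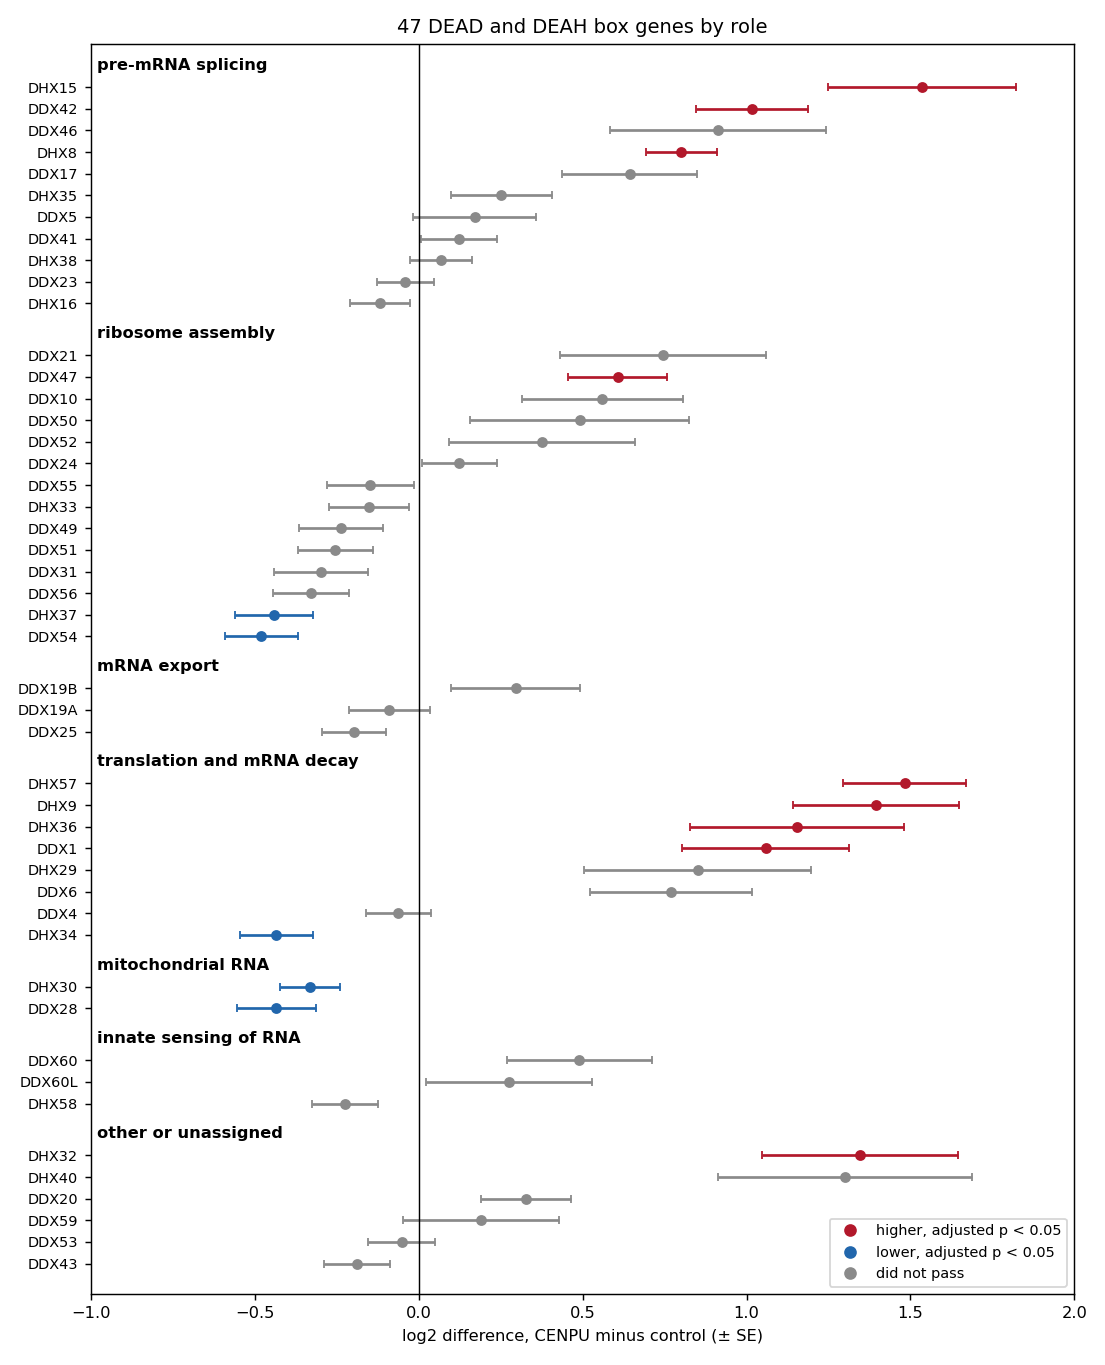
Log2 difference (CENPU minus control, points) with its standard error (bars) for the 47 helicase genes, grouped by role. The 9 genes in red rose by 0.61 to 1.53, the 5 in blue fell by 0.33 to 0.48, and the 33 in grey did not pass.

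The genes that rose came from several parts of RNA metabolism. For 5 of them (DHX57, DHX8, DDX42, DHX9 and DHX15) the call was also made in each of the 10 fits that left out 1 clone, and again without control 2, CENPU 7 and CENPU 13 together. DDX54 had the largest fall in the family. It was called in 6 of the 10 fits without 1 clone, but not without control 2, CENPU 7 and CENPU 13 together. The 250 bases before the annotated start of the 5 genes called in each of these fits, and of DDX54, are shown. They read 5′ to 3′ on the strand of the gene, from RefSeq, assembly GRCh38.p14. Capitals mark matches on either strand to short motifs, and overlapping matches run together. The E-box was searched as CACGTG, the element bound by basic helix-loop-helix factors. The core of the site for the ETS family of factors was searched as CCGGAA. The box bound by the trimeric factor NF-Y was searched as CCAAT and is named by these letters. The GC box, bound by SP and KLF factors, was searched as GGGCGG. The TATA box, placed before some promoters' starts, was searched as TATAAA. The windows lie upstream of the gene at chr2:38875935-38876184 (minus strand), chr17:43483725-43483974 (plus), chr17:63773920-63774169 (plus), chr1:182839097-182839346 (plus), chr4:24584555-24584804 (minus) and chr12:113185479-113185728 (minus).
DHX57: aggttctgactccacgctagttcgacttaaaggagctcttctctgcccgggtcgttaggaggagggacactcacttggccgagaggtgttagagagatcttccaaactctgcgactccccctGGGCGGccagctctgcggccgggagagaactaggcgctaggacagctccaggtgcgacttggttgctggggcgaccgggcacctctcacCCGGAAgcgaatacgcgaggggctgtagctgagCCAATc
DHX8: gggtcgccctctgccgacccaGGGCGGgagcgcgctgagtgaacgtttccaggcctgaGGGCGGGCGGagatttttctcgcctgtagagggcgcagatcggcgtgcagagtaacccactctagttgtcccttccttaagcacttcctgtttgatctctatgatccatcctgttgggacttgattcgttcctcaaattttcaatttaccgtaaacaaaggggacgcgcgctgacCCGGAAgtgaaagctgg
DDX42: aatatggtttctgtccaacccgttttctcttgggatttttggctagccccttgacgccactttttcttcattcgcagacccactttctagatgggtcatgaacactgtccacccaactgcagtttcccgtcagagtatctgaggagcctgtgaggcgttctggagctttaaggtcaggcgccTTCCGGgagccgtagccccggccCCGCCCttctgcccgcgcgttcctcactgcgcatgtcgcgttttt
DHX9: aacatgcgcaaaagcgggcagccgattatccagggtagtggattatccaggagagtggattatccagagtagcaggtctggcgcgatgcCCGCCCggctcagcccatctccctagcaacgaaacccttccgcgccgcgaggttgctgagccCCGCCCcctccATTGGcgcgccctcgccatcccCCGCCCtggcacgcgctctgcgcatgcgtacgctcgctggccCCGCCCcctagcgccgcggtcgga
DHX15: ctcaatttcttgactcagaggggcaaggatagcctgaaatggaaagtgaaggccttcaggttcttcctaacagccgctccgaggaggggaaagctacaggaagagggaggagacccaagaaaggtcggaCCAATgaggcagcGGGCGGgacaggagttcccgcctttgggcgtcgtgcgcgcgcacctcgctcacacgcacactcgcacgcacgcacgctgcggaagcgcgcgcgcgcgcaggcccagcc
DDX54: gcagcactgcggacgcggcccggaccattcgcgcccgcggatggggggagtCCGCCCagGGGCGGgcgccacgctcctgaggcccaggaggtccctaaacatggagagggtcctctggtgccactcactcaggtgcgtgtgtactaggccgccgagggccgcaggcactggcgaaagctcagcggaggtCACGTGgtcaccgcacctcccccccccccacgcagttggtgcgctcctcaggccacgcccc

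Among the printed windows, DHX57, DHX8 and DDX42 hold the ETS core, DHX57, DHX9 and DHX15 the CCAAT box, all 6 at least 1 GC box, and DDX54 alone the E-box. Across the family, 43 of 47 genes had 54 such windows, since a gene can have several annotated starts. The ETS core stood in 44.4% of them, against 14.5% of the 35116 windows of all genes and 18.0% of the 22199 windows of protein-coding genes. For the CCAAT box the shares were 48.1% and 32.7% of protein-coding windows, for the E-box 16.7% and 7.37%, and for the GC box 61.1% and 53.7%. The TATA box stood in 3 of the 54 family windows and 1999 of the 22199 protein-coding windows. The ETS core was in 4 of 9 windows of risen genes and 1 of 5 of fallen genes, and the E-box in 1 of 9 and 2 of 5. These are matches of letters only, and windows of 1 gene can overlap. Family windows held a median of 20.5 CG pairs and protein-coding windows 16, and the shares were not matched for this.

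Helicases that rearrange the spliceosome were the first group. It had 11 measured genes, of which 3 rose, 0 fell and 8 missed the threshold (median log2 difference 0.25). That is 27.3% called, against 10.1% of all genes. DHX15, which takes apart the spent spliceosome, read 8.30, 8.39, 9.20, 9.36 and 9.56 in CENPU clones 1, 4, 5, 7 and 13, and 7.84, 6.65, 7.33, 7.65 and 7.67 in control clones 1 to 5. Every CENPU clone lay above every control, with control 2 lowest. The 2.90-fold rise was the largest in the family (log2 difference 1.53, standard error (SE) 0.29, limma adjusted p = 0.0101). DHX8 releases the finished messenger RNA from the spliceosome. Its values were 9.11, 9.17, 9.23, 9.25 and 9.30 in the CENPU clones and 8.54, 8.06, 8.60, 8.47 and 8.38 in the controls, in the same clone order. The CENPU clones were tightly grouped, with an SD of 0.07 (n = 5) against 0.21 (n = 5) in controls, and the 1.74-fold rise had the second smallest p in the family (log2 difference 0.80, SE 0.11, limma adjusted p = 0.00337). DDX42, a DEAD box protein that binds the branch-site factor SF3B, read 8.68, 9.13, 9.02, 9.30 and 9.38 against 8.34, 7.59, 8.39, 8.03 and 8.09. The groups again stood apart, with a log2 difference of 1.02 (SE 0.17, limma adjusted p = 0.00613).

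The other splicing helicases did not pass. DDX46, which acts at the branch site before the first catalytic step is set up, differed by 0.91 with an SE of 0.33 (limma adjusted p = 0.101). CENPU clones 1 and 4, at 5.97 and 6.13, lay within the control range of 5.15 to 6.21, while clones 5, 7 and 13 read 6.85 to 7.63. DDX17 and its close paralog DDX5, which act in splicing and as transcription coregulators, differed by 0.64 and 0.17 (limma adjusted p = 0.0677 and 0.59). The DDX5 difference turned to -0.18 without control 2, CENPU 7 and CENPU 13. DHX35, DDX41, DHX38, DDX23 and DHX16 had log2 differences from -0.12 to 0.25. All 8 rows of DHX16 gave differences between -0.13 and -0.08, and 0 passed.

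The largest group of changes lay among helicases listed under translation and messenger RNA turnover, a mixed list. It had 8 measured genes, of which 4 rose, 1 fell and 3 missed the threshold (median log2 difference 0.95). That is 62.5% called, against 10.1% of all genes. DHX57, a little-studied DEAH box protein, had the smallest p of the family. It read 6.34, 6.51, 7.16, 6.97 and 7.45 in the CENPU clones and only 5.44, 5.29, 5.54, 5.42 and 5.32 in the controls. The controls spread little, with an SD of 0.10 (n = 5), and the lowest CENPU clone was well above the highest control. The rise was 2.79-fold (log2 difference 1.48, SE 0.19, limma adjusted p = 0.00256). DHX9, which unwinds double-stranded RNA and RNA-DNA hybrids, read 8.45, 8.69, 9.24, 9.34 and 9.58 against 7.93, 6.85, 7.84, 7.79 and 7.91. Control 2 lay far below the other controls. The log2 difference was 1.40 (SE 0.25, limma adjusted p = 0.00912), and without control 2 it was 1.19 (limma adjusted p = 0.0128).

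DHX36, which unfolds G-quadruplexes, and DDX1, a partner of the ligase that joins cleaved tRNAs, rose with less certainty. DDX1 read 7.75, 8.02, 8.70, 8.91 and 9.19 in CENPU clones and 7.70, 6.99, 7.54, 7.55 and 7.49 in controls. The groups did not overlap, but CENPU 1 exceeded control 1 only slightly. The log2 difference was 1.06 (SE 0.26, limma adjusted p = 0.026). DHX36 read 6.83, 7.15, 7.57, 8.07 and 8.60 against 6.44, 5.67, 6.87, 6.70 and 6.77, and CENPU 1 lay inside the control range. Its log2 difference of 1.15 (SE 0.33) passed by a small margin (limma adjusted p = 0.0453). DHX34, a cofactor of nonsense-mediated decay, was the member that fell. It read 7.20, 7.36, 7.27, 7.33 and 6.90 in CENPU clones and 7.49, 7.86, 7.51, 7.68 and 7.70 in controls, so that every CENPU clone was below every control (log2 difference -0.43, SE 0.11, limma adjusted p = 0.0327). DDX6, the helicase of processing bodies, and DHX29, which helps ribosomes scan structured leaders, differed by 0.77 and 0.85 on the log2 scale without passing (limma adjusted p = 0.0689 and 0.138). In both genes CENPU 1 was below the highest control. DDX4, a germ cell helicase, differed by -0.06 at a mean of 3.18.

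**Figure D2:**
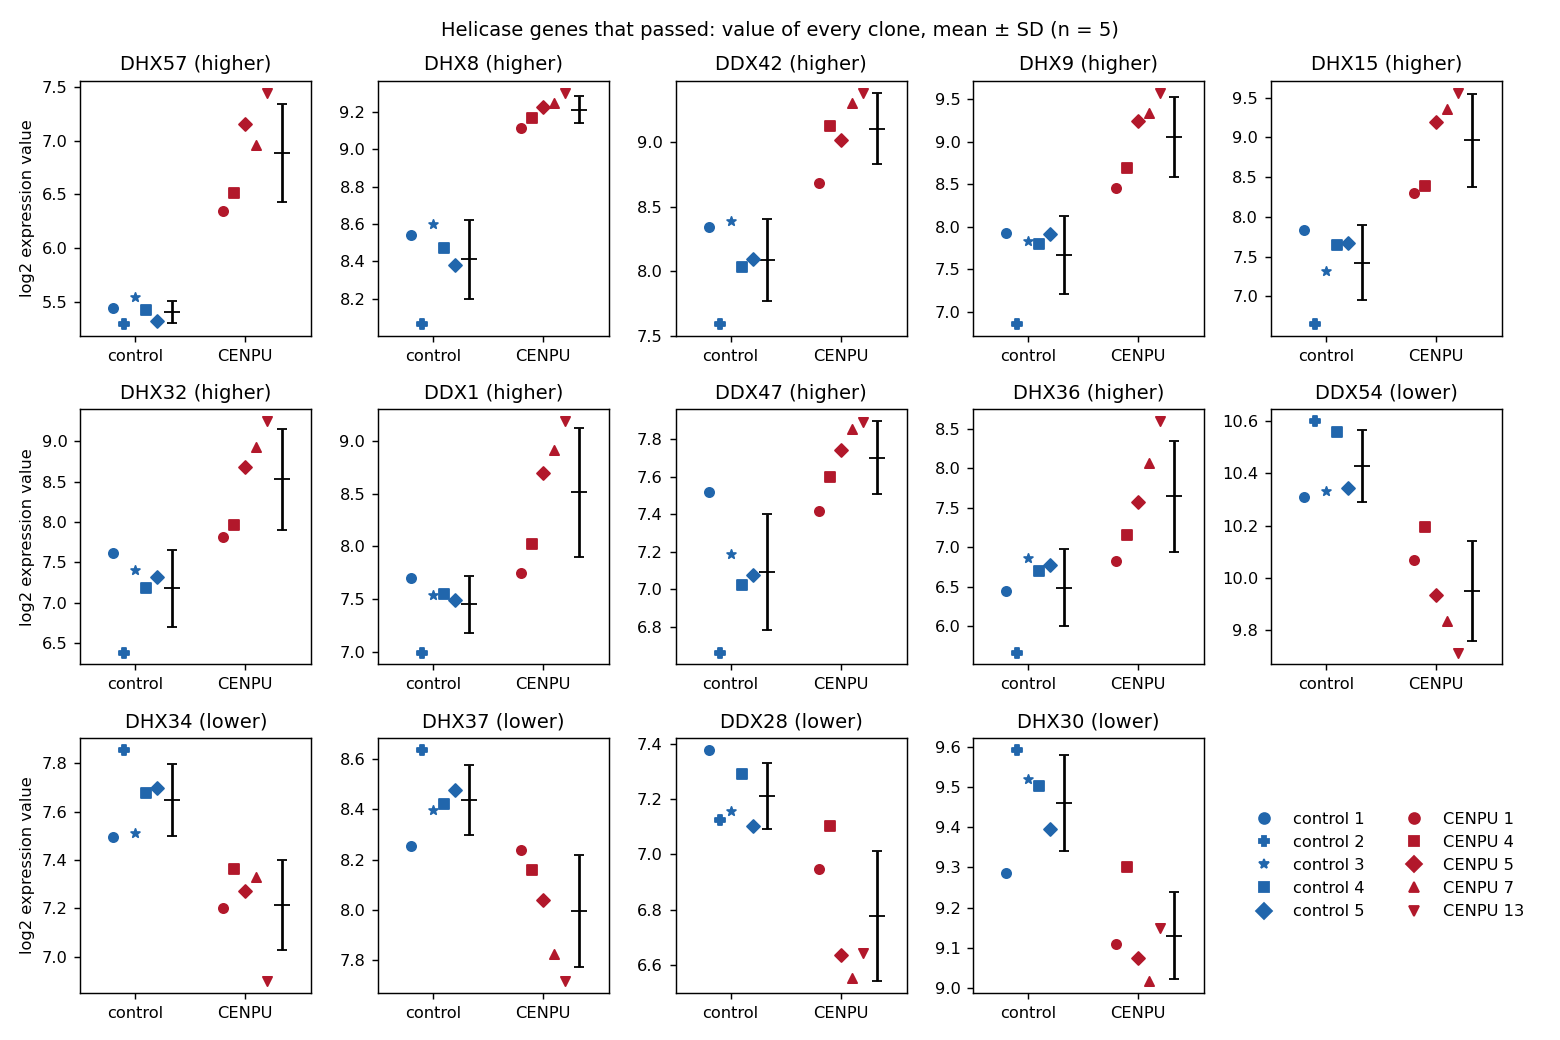
Log2 expression value of the 14 helicase genes that passed, for every clone (markers, control clones in blue and CENPU clones in red), with the mean ± SD of each group (black, n = 5). Vertical axes differ between panels. Control 2 is the lowest clone in all 9 panels of risen genes and CENPU 13 the highest.

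Nucleolar helicases that assemble ribosomal subunits did not move one way. Among 14 measured genes 1 rose, 2 fell and 11 missed the threshold, around a median log2 difference of -0.15. That is 21.4% called, against 10.1% of all genes. DDX47, which acts on the small subunit precursor, read 7.42, 7.60, 7.74, 7.85 and 7.89 in CENPU clones and 7.52, 6.66, 7.19, 7.02 and 7.08 in controls. CENPU 1 was below control 1, so the groups overlapped (log2 difference 0.61, SE 0.15, limma adjusted p = 0.0295). DHX37, which frees the U3 small nucleolar RNA from the same precursor, went down. Its values were 8.24, 8.16, 8.04, 7.83 and 7.72 against 8.25, 8.64, 8.40, 8.42 and 8.48, with CENPU 1 just under control 1 (log2 difference -0.44, SE 0.12, limma adjusted p = 0.0385). DDX54, a nucleolar helicase also known as a nuclear receptor coregulator, read 10.07, 10.20, 9.93, 9.84 and 9.71 against 10.31, 10.60, 10.33, 10.56 and 10.34. Its groups did not overlap (log2 difference -0.48, SE 0.11, limma adjusted p = 0.0228).

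The remaining ribosome assembly genes spread on both sides of 0. DDX56 differed by -0.33 (limma adjusted p = 0.0971), and its groups did not overlap, at 9.58 to 10.05 in CENPU clones and 10.09 to 10.25 in controls. DDX31, DDX51, DDX49, DHX33 and DDX55 had differences from -0.30 to -0.15. DDX21 and DDX50, nucleolar paralogs that lie side by side in the genome, differed by 0.75 and 0.49 (limma adjusted p = 0.15 and 0.365). In both, CENPU 1 was below at least 4 of the controls. Without control 2, CENPU 7 and CENPU 13 the DDX50 difference was -0.17. DDX10, DDX52 and DDX24 had differences of 0.56, 0.38 and 0.12.

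Both measured helicases of mitochondrial RNA fell, a group of only 2 genes, and 4.79% of all genes fell. DDX28, which takes part in building the large mitochondrial ribosomal subunit, read 6.95, 7.10, 6.64, 6.55 and 6.64 in CENPU clones and 7.38, 7.12, 7.16, 7.29 and 7.10 in controls. The groups stood apart only narrowly, with CENPU 4 just under control 5 (log2 difference -0.43, SE 0.12, limma adjusted p = 0.0419). DHX30, found in mitochondrial RNA granules, read 9.11, 9.30, 9.07, 9.02 and 9.15 against 9.29, 9.59, 9.52, 9.50 and 9.40. CENPU 4 lay just above control 1, and the fall was the smallest that passed (log2 difference -0.33, SE 0.09, limma adjusted p = 0.0425).

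DHX32 and DHX40, whose functions are less defined, stood among the largest differences. DHX32 read 7.81, 7.96, 8.68, 8.93 and 9.25 in the CENPU clones and 7.62, 6.38, 7.40, 7.18 and 7.32 in the controls, with no overlap (log2 difference 1.35, SE 0.30, limma adjusted p = 0.0194). DHX40 had a similar difference, 1.30, but a larger SE of 0.39, and did not pass (limma adjusted p = 0.0547). Its CENPU clones ran from 7.90 to 9.80 and its controls from 6.33 to 7.95, so that CENPU 1 and 4 did not exceed control 1. DDX20, a subunit of the SMN complex that assembles spliceosomal particles, differed by 0.33 (limma adjusted p = 0.151).

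None of the 3 measured export helicases passed in limma, and 0 of them had an unadjusted p under 0.05. DDX19A and DDX19B, which release proteins from messenger RNA at the nuclear pore, are near-identical neighbours, and signal cannot be assigned to each copy with certainty. The third, DDX25, is a testis gene whose CENPU clones all lay below its controls at a low mean of 3.79. DDX19A and DDX19B differed by -0.09 and 0.30, and the DDX19A difference was 0.0030 without control 3. Among the 3 measured sensors of viral RNA and their relatives 0 passed in limma, while 2 had an unadjusted p under 0.05, as did 27.9% of all genes. DDX60, DDX60L and DHX58 differed by 0.49, 0.27 and -0.22 (limma adjusted p = 0.173, 0.516 and 0.177), and the DDX60L difference was -0.066 without control 2, CENPU 7 and CENPU 13. RIGI, once named DDX58, is outside the symbol rule and differed by 0.71 (limma adjusted p = 0.182). The germ cell and testis genes DDX25, DDX43 and DDX53 had means of 3.34 to 3.92 and differences from -0.20 to -0.05. Together with DDX4, DDX59, DDX60 and DDX60L they were the 7 helicase genes with means under the median of all rows, where residual background shrinks differences.

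The clones of a group were not alike. In all 9 risen genes control 2 was the lowest of the 10 clones and CENPU 13 the highest. Among the 791 genes that rose in the whole table, control 2 was lowest in 69.9% and CENPU 13 highest in 64.0%. In 8 of the 9, CENPU 1 and 4 both lay below CENPU 5, 7 and 13, an order seen in 63.1% of all risen genes. DDX42 was the exception, with CENPU 4 above CENPU 5. In 4 of the 5 fallen genes control 2 was highest, and CENPU 13 or CENPU 7 was lowest in all 5. Over all 47 genes, the median deviation from the mean of the 10 clones was -0.33 in control 2, 0.31 in CENPU 7 and 0.28 in CENPU 13. It was -0.05, 0.02 and 0.08 in CENPU 1, 4 and 5, and -0.01, 0.07, -0.12 and -0.08 in control 1, 3, 4 and 5. The risen genes spread widely within groups, with a median SD of 0.47 in CENPU clones and 0.32 in controls, against 0.35 and 0.24 over all risen genes and 0.22 and 0.17 over all genes.

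**Figure D3:**
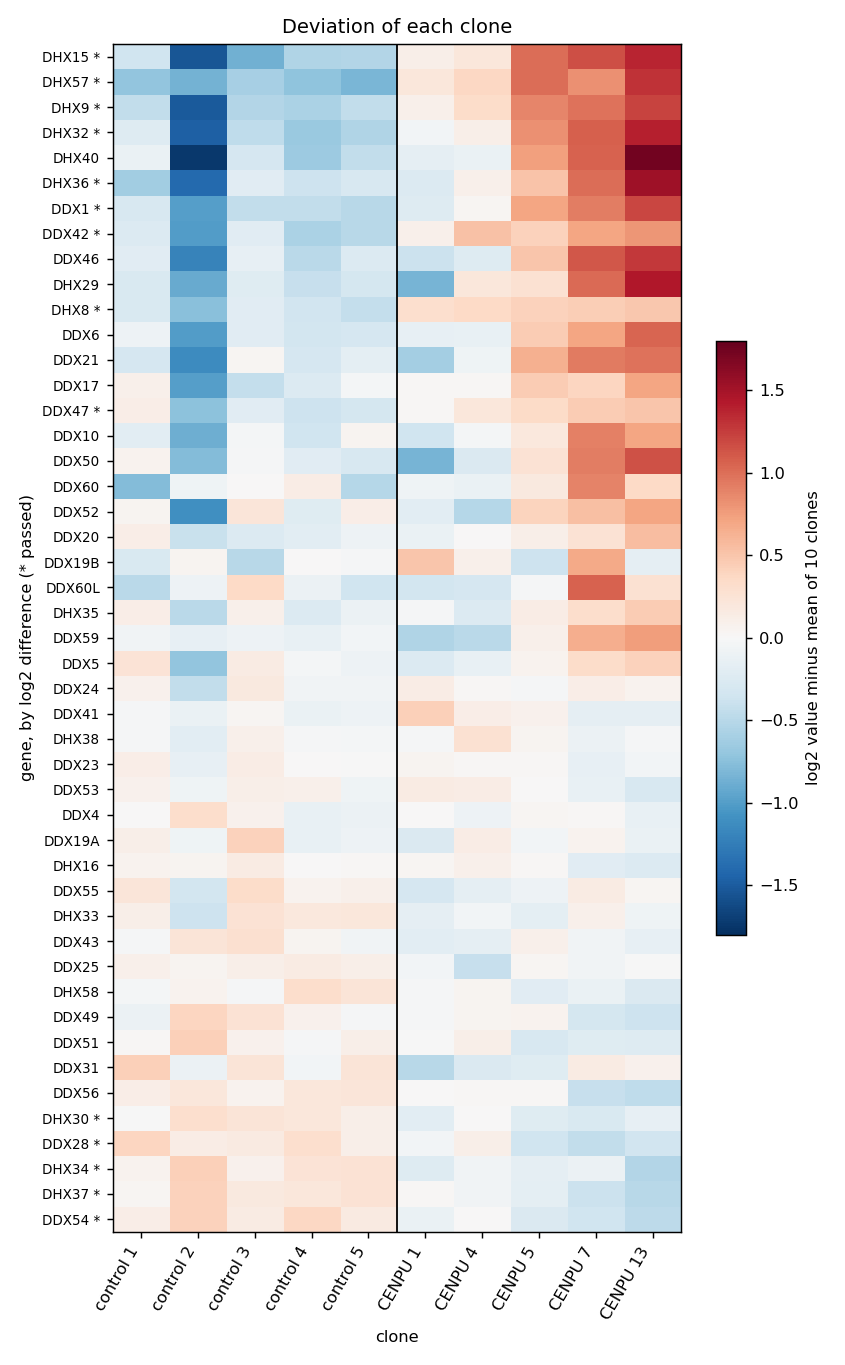
Deviation of each clone from the mean of the 10 clones (colour, log2) for the 47 helicase genes, ordered by log2 difference, with genes that passed marked by an asterisk. Control 2 is bluest for most genes at the top, and CENPU 7 and CENPU 13 are reddest there, while CENPU 1 and 4 lie nearer to the controls.

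The number of calls in the family varied with the clones fitted. A fit without a clone also rests on fewer clones, and this was not separated from which clone was left out. The number called was 5 without CENPU 7 or without control 4, 6 without CENPU 13 or without control 2, and 7 without CENPU 5, without control 3 or without control 5. Of all genes, 4.12% (without control 4) to 5.80% (without CENPU 5) were called in these fits. The number of helicase genes called was 13 without control 1, 16 without CENPU 4 and 20 without CENPU 1. There 9.55%, 13.3% and 16.6% of all genes were called. In the fit without control 4, 10.6% of the helicase genes were called against 4.12% of all genes, and without CENPU 1 42.6% against 16.6%. All 14 genes kept their sign in each of the 10 fits. DHX57, DHX8, DDX42, DHX9 and DHX15 passed in all 10, DHX32 in 8 (not without CENPU 7 or control 4) and DDX54 in 6. DDX1, DDX47, DHX34, DHX37 and DHX30 passed in 3, and DDX28 and DHX36 in 2. Without CENPU 7 or without control 4 the fallen genes called were 0 and the risen genes called were 5. Without CENPU 13 or without control 2 they were 0 and 6. Without CENPU 5, control 3 or control 5 they were 1 and 6.

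The fit of the 7 clones other than control 2, CENPU 7 and CENPU 13, the 3 clones whose deviations correlated most strongly with gene span across genes (-0.355, 0.316 and 0.36, Spearman), also called 5 helicase genes. They were the same 5, with log2 differences of 1.24 for DHX57, 1.01 for DHX15, 0.93 for DHX9, 0.73 for DDX42 and 0.67 for DHX8 (limma adjusted p from 0.0109 to 0.0341). DHX32 differed by 0.77 (limma adjusted p = 0.0711), DDX1 by 0.59, DHX36 by 0.49 and DDX47 by 0.39, and the fallen genes by -0.34 to -0.24. There the 14 genes had 42.4% to 83.8% (median 66.5%) of the difference seen in all 10 clones. Smaller differences were built in, because the clones left out held extreme values of these genes. In that fit 10.6% of the helicase genes and 3.16% of all genes were called.

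**Figure D4:**
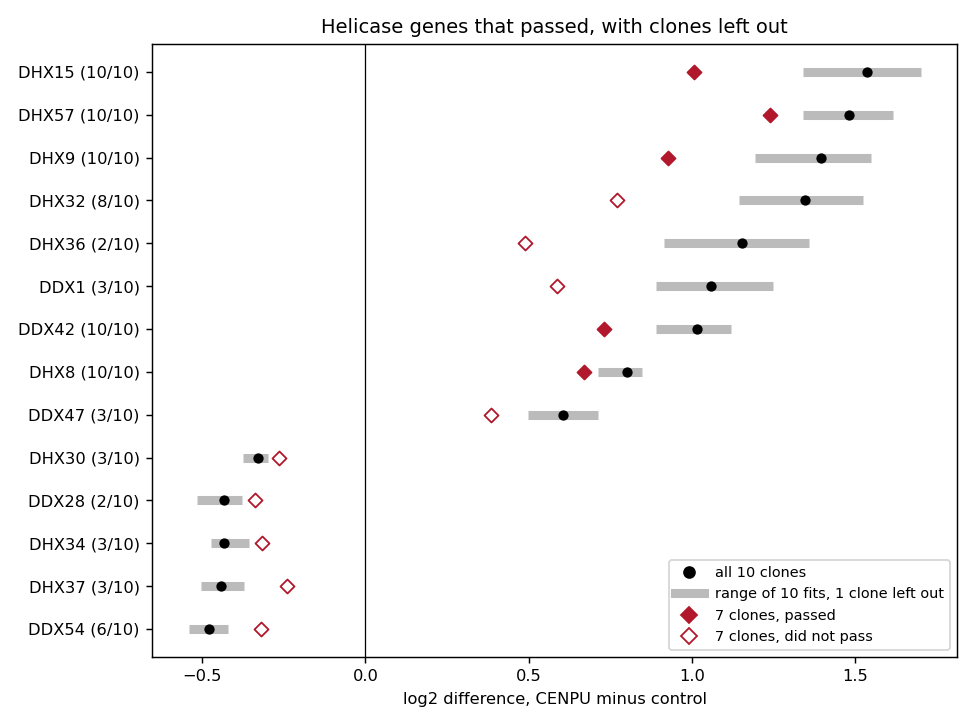
Log2 difference of the 14 helicase genes that passed, in all 10 clones (black points), as the range of the 10 fits without 1 clone (grey bars) and without control 2, CENPU 7 and CENPU 13 (diamonds, filled where adjusted p was under 0.05). The numbers give the fits without 1 clone in which the gene passed, 10 of 10 for the 5 genes with filled diamonds.

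Genomic span, the length of the gene from start to end in RefSeq, moved with the differences. The risen helicase genes had a median span of 51.9 kb (16.6 to 78.2), the fallen ones 33.4 kb (2.32 to 47.1) and all 47 a median of 33.4 kb. Over the whole table the medians were 53.7 kb for risen genes, 13.0 kb for fallen genes and 20.7 kb for all genes. Across the 47 genes Spearman's correlation of span with log2 difference was 0.497, and across 11916 protein-coding genes it was 0.327, where genes share the same 10 arrays and are not replicates. Among genes of similar span, DHX37 and DHX30, with 42.3 and 47.1 kb, fell while DDX42 and DHX9, with 45.5 and 48.6 kb, rose. At the ends of the range of passed genes, DDX28, with 2.32 kb, fell and DHX57, with 78.2 kb, rose. Whether span had a part in these calls was not tested. With the span trend removed from each array, 15 helicase genes were called (31.9%), 10 higher and 5 lower, and 13 of the 14 were among them. Of all 14884 genes, 1556 were called there. The family median was then 0.11 in place of 0.19, the DDX60L difference 0.05 in place of 0.27 and the DDX19B difference 0.15 in place of 0.30. DDX28, with the shortest span of the family, did not pass there (log2 difference -0.31, limma adjusted p = 0.0945), and DHX40 (1.16) and DDX31 did. The part of the trend in the remaining differences was not tested.

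**Figure D5:**
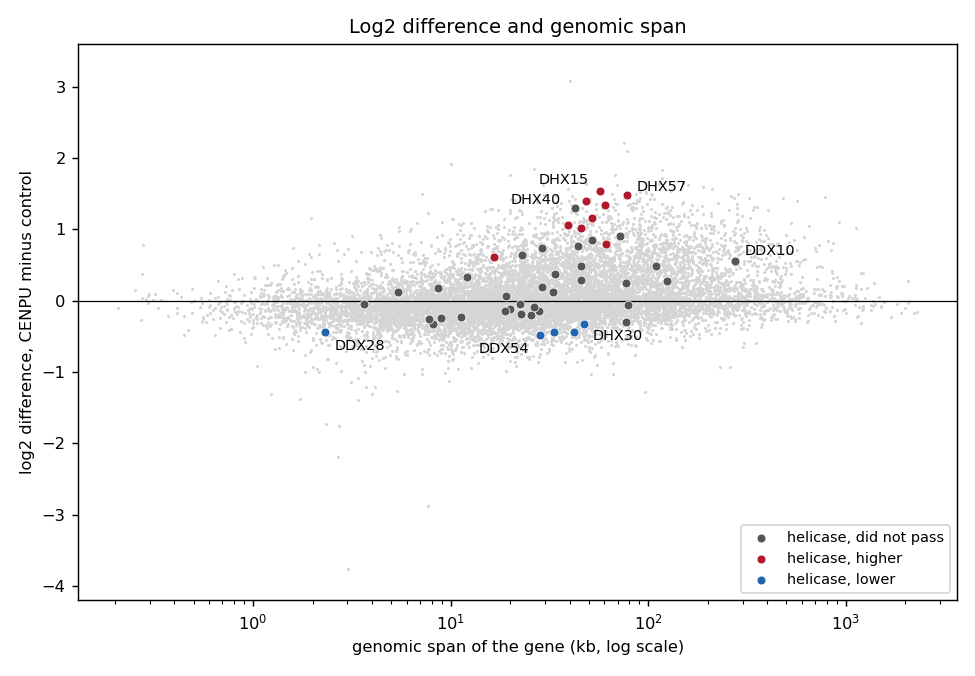
Log2 difference (CENPU minus control) against genomic span (kb, log axis) for protein-coding genes (light grey) and the 47 helicase genes (coloured by call). Risen helicase genes lie between 16.6 and 78.2 kb, and fallen ones between 2.32 and 47.1 kb.

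Related genes outside the symbol rule were counted from lists of helicases and helicase partners. The list of other RNA helicases had 14 measured genes, 1 of which, the m6A reader YTHDC1, is no helicase. In it 4 rose, 0 fell and 10 missed the threshold (median log2 difference 0.17). Of all genes, 5.31% rose and 4.79% fell. The splicing helicases AQR and SNRNP200 rose by 1.84 and 0.95, the exosome helicase MTREX by 1.71 and HELZ by 1.27 (limma adjusted p from 0.00401 to 0.028). AQR, SNRNP200 and MTREX were called in each of the 10 fits without 1 clone. HELZ was not called without CENPU 5, 7 or 13 or control 2, 4 or 5. Without control 2, CENPU 7 and CENPU 13 together, only AQR and SNRNP200 of the list were called. EIF4A3, the helicase of the exon junction complex, and UPF1, the helicase of nonsense-mediated decay, differed by 0.09 and -0.17 and did not pass.

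Partners of the helicases were counted in the same way, against 10.1% of all genes called, and most of their calls were lost in at least 1 fit without 1 clone. Among 16 measured G-patch proteins, a class that activates DEAH helicases, SON (1.32), RBM5 (0.50) and GPATCH1 (0.45) rose, RBM10 (-0.42) fell and 12 did not pass. SON was the only one of the list called without CENPU 7, CENPU 13, control 2, control 4 or control 5 and after median centring, and without CENPU 5 or control 3 it was called with 1 other. Of 12 regulators and partners of DEAD helicases, EIF4B and EIF4H, which stimulate the initiation helicase EIF4A, rose by 0.92 and 0.31, and 10 did not pass. EIF4B was called in each fit without 1 clone, EIF4H not without CENPU 5, 7 or 13 or control 2, 3, 4 or 5, and without CENPU 1 the list had 4 calls. GEMIN5, which selects small nuclear RNAs for the SMN complex, rose by 0.76. The list of that complex left out DDX20, counted with the helicase genes, and had 7 measured genes. Of these 6 did not pass, and 1 in 7 is near the share of all genes. This list had 0 calls in limma without CENPU 5, CENPU 7, CENPU 13, control 3 or control 4. In those limma fits 3 of its genes had an unadjusted p under 0.05. It had 2 calls without CENPU 4 or control 1, and 3 without CENPU 1. In the list of TREX and export adaptors NXT1 (-0.57), THOC6 (-0.64) and ALYREF (-0.44) fell and 7 of 10 did not pass. NXT1 was called in each fit without 1 clone and was alone without control 4, while without CENPU 1 or CENPU 4 THOC2 and ZC3H11A were called higher as well. Of 10 RIG-I signalling genes ANKRD17 (1.02) and the ubiquitin ligase TRIM25 (0.36) rose and 8 did not pass. Without CENPU 7, CENPU 13, control 2, control 4 or control 5 this list had 0 calls in limma, with 5 or 6 genes at an unadjusted p under 0.05, and without control 1 it had 1. The limma adjusted p of the genes named from these partner lists ran from 0.00458 to 0.046. The list medians were 0.08, 0.17, 0.21, 0.16 and -0.05 in this order, against -0.02 for all genes.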

How the data were processed

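The deposited table held 1 column for each clone and 53617 rows of log2 expression values between 1.65 and 15.0. Per the submitters' processing notes the tools were Partek and RMA (background correction, quantile normalization and probe summary), with no version stated. That the scale is log2 was read from these values. RMA removes a change shared by most genes, and residual background shrinks differences of dim rows. A platform table named 16098 rows with 1 symbol each and left 37519 unnamed. Symbols, biotype and span came from RefSeq GRCh38.p14 by gene ID, and no source used here names the build behind the array's own annotation. DDX3X, DDX18, DDX27, DDX39A, DDX39B and DDX11 had no named row and were not analysed here.

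Each named row was fitted with limma 3.58.1 in R 4.3.3 (lmFit, eBayes, no covariates), with Benjamini-Hochberg adjustment over the named rows. For 779 genes with more than 1 row the brightest row on average was kept. P-values weigh the difference between the groups against the spread between clones. Named genes were those that passed, the 6 others of smallest p, paralog pairs, and up to 4 passing genes per other list; remaining genes were named to complete their group. The helicase genes and all lists were chosen with earlier results of these data known. Clone numbers 1, 4 and 5 occur in both groups, and the labels do not say whether they mark a shared source. The main fit did not use them as pairs. Alternatives were other scalings, filters, row choices, moderation, thresholds, a number block, leaving out clones, and removal of the span trend by loess.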

Additional observations from a re-analysis of the deposited data

Results flagged for a closer look

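For the helicase genes that passed, those next in order of p and the paralog pairs, each group of 5 clones was searched for a value far from the rest, and of these 54 groups 2 held a clone far from the other 4, both times control 2. About 1 in 20 groups is marked by chance alone. DHX9 read 6.85 in control clone 2, and the other controls lay between 7.79 and 7.93. DDX6 read 7.75 in that clone, and the others lay between 8.43 and 8.68. Without control 2, DHX9 still passed, with a log2 difference of 1.19, and DDX6, which had not passed in all 10 clones, differed by 0.61 (limma adjusted p = 0.153).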

How the results depend on the processing

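All 14 helicase genes that passed kept their sign under every alternative run. Of 47 genes, 14 were called, 9 higher and 5 lower. Testing all rows gave 2 lower (10 called), trend and robust fitting 3 lower (12 called), a threshold of 0.01 4 called (4 higher, 0 lower), and the fit without control 2, CENPU 7 and CENPU 13 5 called (5 higher, 0 lower). Quantile normalization, median centring, leaving out dim rows, averaging rows, array weights, a threshold of 0.10 and span trend removal gave 13 to 18. Without 1 clone each, 5 to 20 were called, 5 to 15 higher and 0 to 5 lower, and the median log2 difference of the family was 0.11 to 0.31. Over all genes 1504 were called, 253 at the threshold of 0.01 and 2588 at 0.10. Without those 3 clones 470 were called, and without 1 clone 613 to 2471. Testing all rows called 1161 genes, trend and robust fitting 1353 and median centring 1343. Averaging rows called 1460, span trend removal 1556, quantile normalization 1706 and array weights 2251. Leaving out dim rows called 1617, or 15.4% of the genes kept.

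Clone numbers 1, 4 and 5 are shared by the groups. Deviations of same-numbered clones correlated at -0.375, 0.104 and 0.0249, and 3 of these 6 clones correlated best with their own number. The replicate block on these 6 clones called 1 helicase gene, DHX57 (1 higher, 0 lower), and 55 genes overall. The same 6 clones without the block, added after seeing the data, called 2 (2 higher, 0 lower), DHX57 and DHX8, and 147 genes overall. With limma, 13 and 15 helicase genes (27.7% and 31.9%) had an unadjusted p under 0.05 in these fits, against 14.8% and 15.3% of all genes, and the family median was 0.06 in both. Genes that had not passed changed sign in places: DDX5 was -0.15 with the block and in the 6 clones without it, and -0.18 without the 3 clones. DDX50 was -0.14, -0.14 and -0.17 in these fits. DDX60L was -0.066 without the 3 clones, and DDX19A ran from -0.13 to 0.0030 without 1 clone each, crossing 0 without control 3. Dim rows set the lower limit of what these arrays resolve.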
